A study of Saccharomyces cerevisiae with 2 samples.

Results

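FRT2, OSW7 and SCO1 lie beneath some of the strongest peaks of Vid22 in the genome of Saccharomyces cerevisiae, and each has a paralog elsewhere in it: FRT1, SHE10 and SCO2. These 6 genes in 3 pairs, of 6002 nuclear protein-coding genes, were chosen by measured values: 1 gene of each pair has a peak whose fold enrichment is among the highest of the list. That choice fixes the peaks of FRT2, OSW7 and SCO1, which are given as a description. The question is what the paralogs share and where they differ, in Vid22 binding, in predicted G-quadruplexes, in the Tbf1 consensus and in the genes around them. FRT2, OSW7 and SCO1 are called the strongly bound genes after their folds alone, and FRT1, SHE10 and SCO2 their paralogs.

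Chromatin was immunoprecipitated with an antibody against the Myc tag from a strain whose Vid22 carries 13Myc, and a wild type (no tag) strain was the negative control. Overnight cultures in YEP medium were diluted, regrown and cross-linked with formaldehyde, and both conditions share this growth and treatment. The labels list the antibody of the control as none, whereas the methods describe the untagged strain as processed like the tagged one, so how the control was immunoprecipitated is unclear. DNA of 2 ChIP experiments was pooled before sequencing, giving 1 library per condition and no replicates. No test between samples was therefore possible, and each value below is a description of 1 peak list. The tagged strain reports on Vid22 at its own locus in a growing population, and a peak says that DNA near it was recovered with the tag, not how many cells or molecules were bound. The list gives no read counts, and the depth behind a peak was not worked out here from its fold and p-value.

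Vid22 is a BED zinc-finger protein of budding yeast that acts with Tbf1, an essential DNA-binding protein, and with Env11, its own paralog. Tbf1 recognises TTAGGG-like repeats, the motif of vertebrate telomeres, and in yeast it sits at subtelomeres and at many promoters, including those of small nucleolar RNAs. G-quadruplexes, or G4, are folded structures of runs of guanine, and Vid22 has been studied as a protein that keeps such sequences stable. Paralogs are copies left by gene duplication. Baker's yeast descends from an ancestor with a duplicated genome, most of whose copies were lost, and a retained pair can keep similar coding sequence while its promoters diverge.

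The list held 811 peaks, called by MACS2 against the control, and 445 of them had a −log10 q-value of at least 9, the threshold used here. A fold is the ratio of the Vid22-13Myc read pileup at the peak summit, the base with the highest pileup, to the local control. Folds can therefore differ through the control as well as through Vid22, and these parts were not separated here. At the threshold the median fold was 1.87 and the median length 527 bp. Of these peaks, 90 had a fold above 3 and 32 a fold of at least 6. The highest fold, 6.98, was shared by 5 peaks, those of FRT2 and OSW7 among them. The highest −log10 q, 284, was shared by 7 peaks, again with those of FRT2 and OSW7. Such ties do not rank the peaks that share them, and whether they mark a ceiling was not tested.

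A peak overlapped the gene or the 1 kb upstream of it in 5 of the 6 members, against 829 of all 6002 genes (13.8%). A summit with a fold above 3 lay in the 1 kb upstream in the same 5, against 167 of all genes (2.78%). These shares are given beside counts that the choice of members partly fixed, since 3 of the 5 peaks were used to choose them. The rule did not use the peaks of FRT1, SHE10 and SCO2, although the pairs were picked with these results known. SCO2 was the member without a peak.

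The promoter stretches of 5 members are shown first, because the arrangement of the Tbf1 consensus within them differs among the members. Each runs from 350 to 131 bp upstream of the gene start on the strand of the gene, in sacCer3, the R64 assembly of RefSeq. The window was set after the summit positions were known. TAGGG, or its complement CCCTA, is in capitals. The stretches are chrI:92550-92769 (plus strand) for FRT2, chrXV:925171-925390 (minus strand) for FRT1, chrVII:67248-67467 (plus strand) for SHE10, chrII:311583-311802 (minus strand) for SCO1 and chrII:289095-289314 (plus strand) for SCO2. All 5 are intergenic.
FRT2: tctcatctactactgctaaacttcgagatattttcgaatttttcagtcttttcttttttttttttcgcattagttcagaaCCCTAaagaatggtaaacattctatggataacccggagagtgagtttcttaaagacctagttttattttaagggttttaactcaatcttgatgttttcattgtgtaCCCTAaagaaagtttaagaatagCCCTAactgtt
FRT1: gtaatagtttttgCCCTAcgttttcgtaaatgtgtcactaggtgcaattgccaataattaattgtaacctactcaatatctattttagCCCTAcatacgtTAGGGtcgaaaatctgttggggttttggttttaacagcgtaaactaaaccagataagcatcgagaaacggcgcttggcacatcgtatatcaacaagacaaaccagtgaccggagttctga
SHE10: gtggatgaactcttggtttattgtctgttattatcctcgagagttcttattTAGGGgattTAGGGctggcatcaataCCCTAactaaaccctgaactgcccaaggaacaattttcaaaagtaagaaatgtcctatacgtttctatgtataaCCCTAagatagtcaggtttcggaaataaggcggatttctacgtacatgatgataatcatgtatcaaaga
SCO1: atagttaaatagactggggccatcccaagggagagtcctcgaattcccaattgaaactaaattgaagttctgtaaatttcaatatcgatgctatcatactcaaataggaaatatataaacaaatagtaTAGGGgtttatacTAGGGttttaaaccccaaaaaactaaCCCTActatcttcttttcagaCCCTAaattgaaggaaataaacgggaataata
SCO2: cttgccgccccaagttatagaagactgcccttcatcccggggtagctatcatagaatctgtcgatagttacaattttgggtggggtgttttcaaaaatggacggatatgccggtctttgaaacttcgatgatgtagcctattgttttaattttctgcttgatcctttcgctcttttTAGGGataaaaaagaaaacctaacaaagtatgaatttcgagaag
The stretch held 3 copies in FRT2, 3 in FRT1, 4 in SHE10 and 4 in SCO1, and 1 in SCO2. The copies near the summits lie on either strand, and in FRT2 all of them read as CCCTA on the strand of the gene. The longest exact match between the intergenic regions was 12 bp for FRT2 and FRT1, 9 bp for OSW7 and SHE10, and 9 bp for SCO1 and SCO2.

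FRT2 (YAL028W, chrI:92900-94486, plus strand) encodes a tail-anchored protein of the endoplasmic reticulum that promotes growth under high sodium, alkaline pH and cell wall stress. FRT1 (YOR324C, chrXV:923232-925040, minus strand) encodes its interacting paralog, a substrate of the phosphatase calcineurin. The peak at FRT2 spanned 6205 bp (chrI:89305-95509) with a fold of 6.98 and a −log10 q of 284. The peak at FRT1 spanned 7228 bp (chrXV:920689-927916) with a fold of 4.54 and a −log10 q of 194. The fold at FRT2 was 1.54 times that at FRT1, whereas the peak at FRT1 was the longer. Whether the Vid22 pileup or the local control differed between these summits was not tested. By fold the peak at FRT2 shared rank 1 of 445 and that at FRT1 rank 76, and by length they stood at ranks 20 and 9. Both summits were upstream of the start codon, 202 bp in FRT2 and 294 bp in FRT1.

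Both genes had 3 sites near the summit, with other strands and spacing. FRT2 had 5 TAGGG sites in the 1 kb upstream, of which 3 lay within 100 bp of its summit, at 266, 160 and 137 bp from the gene start. FRT1 had 4, of which 3 lay within 100 bp of its summit, at 333, 258 and 246 bp from the gene start. The 3 sites near the summit spanned 134 bp in FRT2 and 92 bp in FRT1. All 5 upstream sites of FRT2 and all 4 of FRT1 were followed by C or T on the strand of TAGGG. A set of 3 TAGGG within 150 bp was therefore present in both promoters, although no run longer than 12 bp was identical between them.

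The genes beside FRT2 and FRT1 are paralogs too. Upstream of FRT2 the divergent neighbour is MYO4, a class V myosin that carries mRNA into the bud, and upstream of FRT1 it is MYO2, the class V myosin that carries secretory vesicles and organelles. MYO4 and MYO2 were reciprocal best hits in a protein search, with 50.1% identity over 1511 residues. Behind them stand SNC1 and SNC2, v-SNAREs of secretory vesicles, with 76.7% identity over 116 residues. The region between FRT2 and MYO4 was 629 bp long with 4 TAGGG sites and a GC content of 32.0%. That between FRT1 and MYO2 was 680 bp long with 4 TAGGG sites and a GC content of 37.6%. The summit lay closer to the FRT gene than to the myosin in both: 202 against 428 bp at FRT2 and MYO4, and 294 against 387 bp at FRT1 and MYO2. The peaks covered 67.2% of MYO4 and 46.5% of MYO2, and both peaks take in the start of the myosin gene as well as that of the FRT gene. On the downstream side they covered all of SAW1, which takes part in single-strand annealing, at FRT2, and all of PRO2, an enzyme of proline synthesis, at FRT1. A separate peak with a fold of 6.11 had its summit upstream of PMT3, a protein O-mannosyltransferase gene 3 places from FRT1.

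OSW7 (YFR039C, chrVI:232012-233544, minus strand) and SHE10 (YGL228W, chrVII:67598-69331, plus strand) encode paralogous proteins with a role in assembly of the outer spore wall, the dityrosine-containing coat of ascospores. The peak at OSW7 spanned 6065 bp (chrVI:231074-237138) with a fold of 6.98 and a −log10 q of 284. The peak at SHE10 spanned 4537 bp (chrVII:65482-70018) with a fold of 5.20 and a −log10 q of 223. The ratio of the folds was 1.34, and the part of the control in it was again not tested. By fold OSW7 shared rank 1 and SHE10 rank 56, and by length they stood at ranks 22 and 40. The summits were 246 bp upstream of OSW7 and 235 bp upstream of SHE10, a smaller gap than in FRT2 and FRT1, the other pair with a summit at both genes.

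OSW7 had 3 TAGGG sites within 100 bp of its summit, and SHE10 had 4, at 295, 286, 269 and 195 bp from the gene start. They spanned 90 bp in OSW7 and 105 bp in SHE10. In each gene 3 of these sites were followed by C or T, and the remaining site of SHE10 was followed by G. OSW7 had 2 further sites upstream, and SHE10 had none. The divergent neighbours were SAP155 at OSW7 and SAP4 at SHE10, which encode subunits that associate with the Sit4 phosphatase. They were reciprocal best hits with 38.2% identity over 960 residues. The region between OSW7 and SAP155 was 697 bp long and that between SHE10 and SAP4 638 bp, and each held 4 TAGGG sites. The summit was again the nearer to the member: 246 bp from OSW7 against 452 bp from SAP155, and 235 bp from SHE10 against 404 bp from SAP4. The peaks covered 96.3% of SAP155 and 60.2% of SAP4.

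SCO1 (YBR037C, chrII:310565-311452, minus strand) encodes a copper-binding protein of the mitochondrial inner membrane that delivers copper to subunit Cox2 of cytochrome c oxidase. SCO2 (YBR024W, chrII:289445-290350, plus strand) encodes its homolog, which is not required for respiration. The genes lie 20215 bp apart on chromosome II. The peak at SCO1 spanned 4587 bp (chrII:309044-313630) with a fold of 6.82, a −log10 q of 282 and its summit 179 bp upstream. It stood 10th of 445 by fold, between peaks of 6.84 and 6.81, and 39th by length. SCO2 had no peak over the gene or its upstream kilobase, either at the threshold or in the whole list, which reaches down to a −log10 q of 1.34 and a fold of 1.16. The nearest peaks of any strength lay 31776 bp to the left and 18075 bp to the right of SCO2 and its upstream kilobase. They bound a stretch of 51755 bp on chromosome II with 26 whole protein-coding genes and no peak. This stretch was the 50th longest of 795 intervals between neighbouring peaks, whose median was 6156 bp.

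SCO2 had nearly as many TAGGG sites upstream as SCO1, but they were spread out. SCO1 had 5, of which 4 lay within 100 bp of its summit, at 218, 205, 179 and 158 bp from the gene start, a span of 65 bp. SCO2 had 4, at 947, 616, 423 and 170 bp, and the closest neighbours started 193 bp apart. Of the upstream sites 3 were followed by C or T in SCO1 and 3 in SCO2. The site of SCO2 within the stretch shown above was the one followed by A. The other 3 sites of SCO2 are shown with 10 bases on either side, on the strand of TAGGG. They lie at chrII:288494-288498 (plus strand), chrII:288825-288829 (minus strand) and chrII:289018-289022 (minus strand), all upstream of SCO2 and intergenic.
SCO2 site 947 bp upstream: taaatttgtcTAGGGtaatttgtaa
SCO2 site 616 bp upstream: ccagcgtgacTAGGGcaacgaattt
SCO2 site 423 bp upstream: ctgtcgccaaTAGGGcaaccttaga
The number of sites thus did not separate SCO2 from the other members, and their spacing did. The most TAGGG found within 150 bp was 3 in FRT2, FRT1 and OSW7, 4 in SHE10 and SCO1, and 1 in SCO2. This rests on a single unbound member and on a span set after the values were seen. Whether spacing affects binding was not tested. At the SKN7 locus, the paper reports no significant change in Vid22 binding after mutation of the Tbf1 consensus sites. Binding there still depended on the G4. The region between SCO1 and its divergent neighbour CHS2, the chitin synthase of the primary septum, was 445 bp long and held 8.99 TAGGG per kb. The region between SCO2 and its divergent neighbour CHS3, the chitin synthase for most of the wall chitin, was 1519 bp long and held 2.63 per kb. Both held 4 sites. CHS2 and CHS3 are both chitin synthases, but they were not reciprocal best hits: they aligned over 177 residues, 18.1% of the shorter protein. The best partner of CHS2 was CHS1, which had no peak. None of the 6 protein-coding neighbours of SCO2 had a peak at the threshold.

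**Figure D1:**
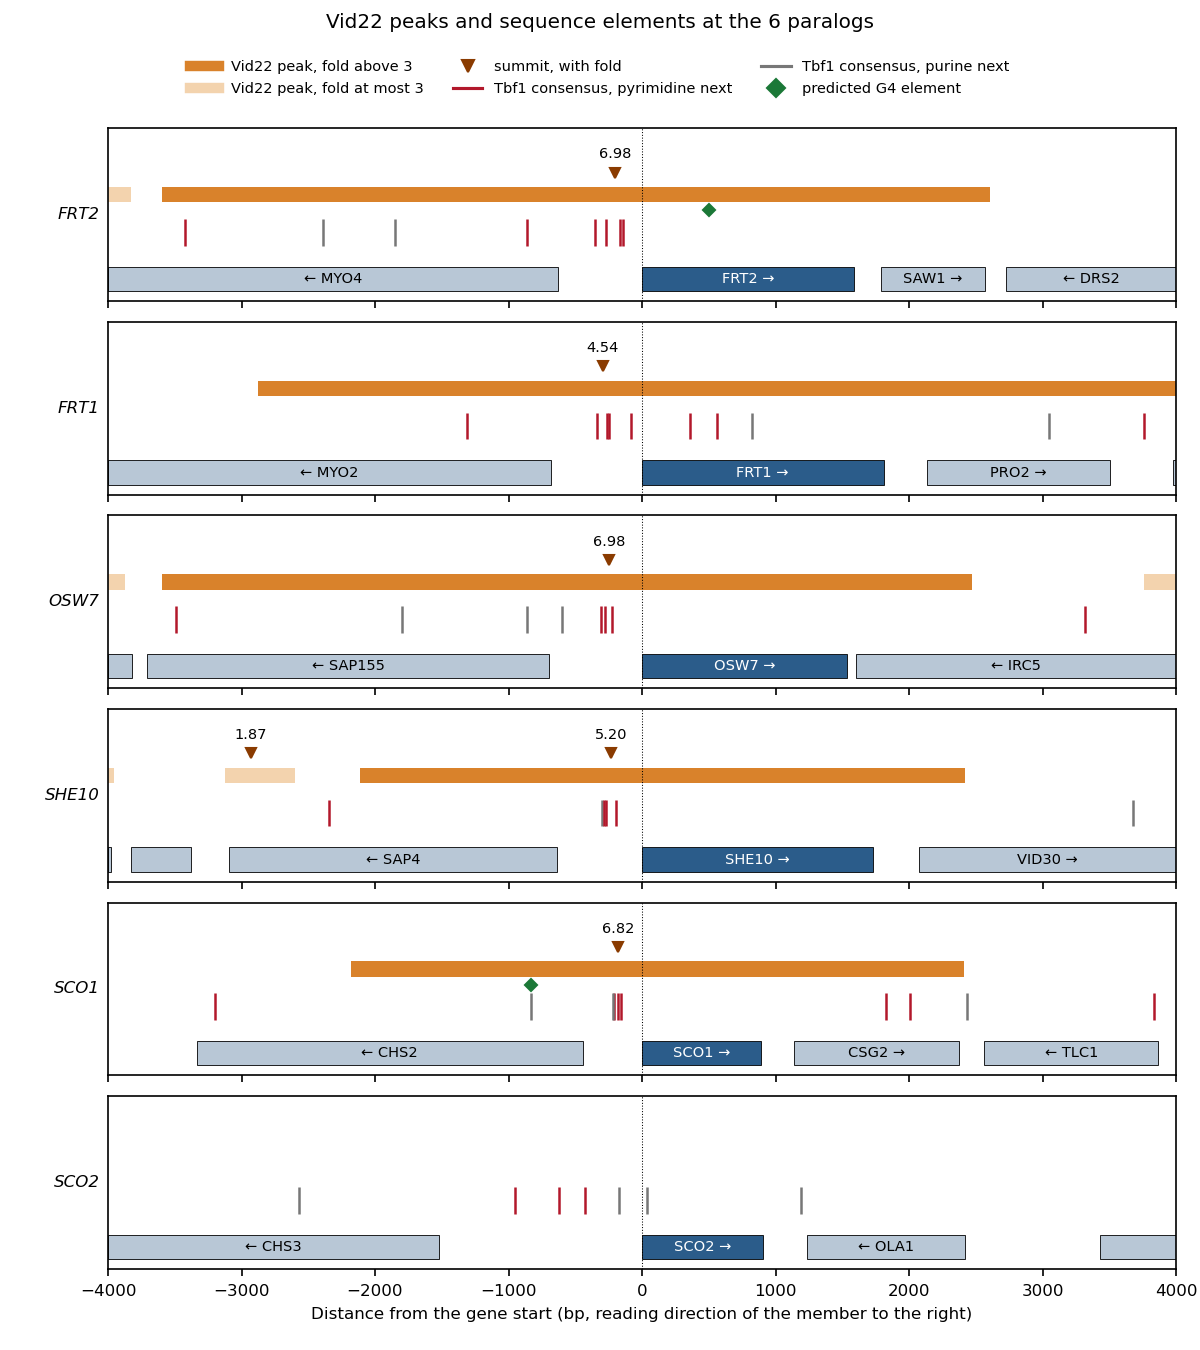
Vid22 peaks and sequence elements around the 6 genes, with each strongly bound gene above its paralog. The x axis is the distance from the gene start in bp, with the gene read to the right; dark and pale boxes are the member and its neighbours with arrows for their direction, orange bars are Vid22-13Myc peaks at the threshold, triangles are summits with their fold, vertical ticks are Tbf1 consensus sites on either strand coloured by the following base, and diamonds are predicted G4 elements. In 5 genes the summit sits over a group of 3 or 4 ticks in front of the gene, and SCO2 has neither a peak nor such a group.

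SCO1 and SCO2, the pair with a peak at 1 gene only, had the most similar proteins of the 3 pairs, with 59.3% identity over 270 residues, or 89.8% of the shorter protein. FRT2 and FRT1 had 36.0% identity over 175 residues, or 33.0% of the shorter protein. OSW7 and SHE10 had 27.0% identity over 215 residues, or 41.6% of it. All 3 pairs were reciprocal best hits. With 3 pairs no relation between protein identity and binding can be tested. Reads were kept only when they had a single best position, and in all 6 members 100% of the positions of the gene and its upstream kilobase began a 50-mer found once in the genome. The longest exact match between the 2 genes of a pair, upstream kilobase included, was 18 bp in SCO1 and SCO2 and 12 bp in the other pairs.

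All 5 bound members had long peaks that covered the whole gene. Their lengths ran from 4537 to 7228 bp, against a median of 3244 bp for the 90 peaks with a fold above 3. They overlapped 3 protein-coding genes each at FRT2, OSW7, SHE10 and SCO1 and 4 at FRT1. Such a span holds the coding sequence of several genes, and the summit, 179 to 294 bp upstream in the 5 members, is the narrower measure of position. OSW7 was the member nearest to a chromosome end, 36617 bp from that of chromosome VI.

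**Figure D2:**
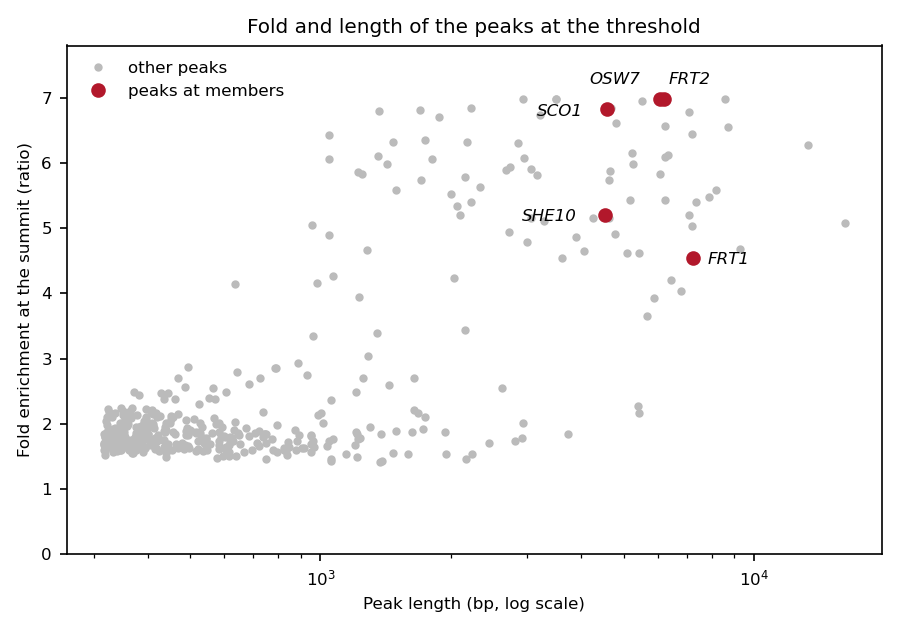
Length (x axis, bp, log scale) and fold enrichment at the summit (y axis, ratio) of the 445 peaks at the threshold, with the peaks at 5 members in red and the other peaks in grey. FRT2 and OSW7 share the highest fold of 6.98, SCO1 follows at 6.82, and SHE10 at 5.20 and FRT1 at 4.54 lie lower within the group of strong and long peaks.

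Predicted G4 elements were found at 2 members, both of them strongly bound. An element was defined as at least 4 runs of GGG on a strand with loops of 1 to 25 bases, searched on both strands, and 635 were found in the nuclear genome. FRT2 had an element inside its coding sequence (chrI:93386-93425, minus strand), 688 bp from the summit and 486 to 525 bp after the gene start. SCO1 had one 801 to 859 bp upstream, inside the coding sequence of CHS2 (chrII:312253-312311, minus strand) and 622 bp from the summit. This element holds 1 TAGGG, the site of SCO1 830 bp upstream, so the 2 features overlap there. They are shown 5′ to 3′ on their own strand, with runs of G of at least 3 that form the element in capitals, since loop length decides whether they count.
FRT2 element: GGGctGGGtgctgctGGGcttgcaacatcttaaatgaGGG
SCO1 element: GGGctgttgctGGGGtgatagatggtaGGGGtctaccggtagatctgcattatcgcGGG
Both elements lay under the peak but away from its summit, and neither remained when loops were limited to 12 or to 7 bases. OSW7, with the same fold as FRT2, had no element in the gene or upstream kilobase, and the nearest was 3800 bp away. For FRT1, SHE10 and SCO2 the nearest elements were 26990, 17687 and 17942 bp away. Over the genome 750 of 6002 genes (12.5%) had an element in the gene or upstream kilobase, and of these 157 (20.9%) had a peak there, against 13.8% of all genes. A summit with a fold above 3 lay in the upstream kilobase of 53 of the 750, FRT2 and SCO1 included, against 167 of all genes (2.78%).

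The base after TAGGG was looked at after its values were seen in the promoters above. Of the 17 sites within 100 bp of the members' summits, 15 (88.2%, Wilson 95% interval 65.7 to 96.7%) were followed by C or T, 5 by C and 10 by T. The same was true of 160 of 169 sites near the 85 other summits with a fold above 3 (94.7%, 90.2 to 97.2%). Near summits with a fold of at most 3 it was true of 73 of 117 sites (62.4%, 53.4 to 70.6%), and elsewhere in the nuclear genome of 4430 of 9388 (47.2%, 46.2 to 48.2%). The members' interval overlaps those of both the strong and the weaker summits, and no difference was tested. The intervals cover the counting of sites alone. Among the 85 other strong summits the median was 2 TAGGG within 100 bp, and 22 had at least 3, as all 5 bound members did.

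A TAGGG site upstream is common, and a group of them is rare. At least 1 site was present in the upstream kilobase of 3341 genes (55.7%), all 6 members included. At least 4 were present at 134 genes (2.23%), again including all 6 members, and without the members 56 of the remaining 128 (43.8%) had a peak. At least 3 within 150 bp, a span set after the values were seen, were present at 99 genes (1.65%), among them the 5 bound members, and without these 61 of 94 (64.9%) had a peak. When each site had to be followed by C or T, the count was 62 genes (1.03%), again with the 5 bound members, and without these 52 of 57 (91.2%) had a peak. The 94 and the 57 genes still include MYO4, MYO2, SAP155, SAP4 and CHS2, the divergent neighbours of the bound members. These neighbours share a promoter and a peak with a member, so the peaks used to choose the members still count there.

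The share of genes with a strong upstream summit, one with a fold above 3, was larger the more sites lay close together. It was 0.188% with no TAGGG upstream, 1.54% with 1 within 150 bp, 12.7% with 2, 43.8% (33.0 to 55.2%) with 3 and 84.6% (66.5 to 93.8%) with 4 or more. These shares are over all 6002 genes and include the members and their divergent neighbours. The peaks used to choose FRT2, OSW7 and SCO1 therefore count in the classes with 3 and with 4 or more. The intervals take each gene as a separate unit, although divergent neighbours can share a summit. SCO2 belongs to the class with 1, whichever next base is allowed. The order was the same for a peak of any strength among genes with many sites. Of the genes with at least 3 TAGGG followed by C or T upstream, as in SCO2, 18 genes other than SCO2 had no 2 of them within 150 bp, and 4 of these had a peak. Of 50 with 2 within 150 bp, 26 had a peak, and of 57 genes other than the members with 3 or more within 150 bp, 52 had one. A strong upstream summit was present at 3 of the 18, 19 of the 50 and 45 of the 57, against 2.78% of all genes. Neighbouring genes on either side of a divergent promoter share its sites and its peak, so these genes are not independent of each other. The divergent neighbours of the bound members are among the 57 genes, and are not independent of the members either.

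**Figure D3:**
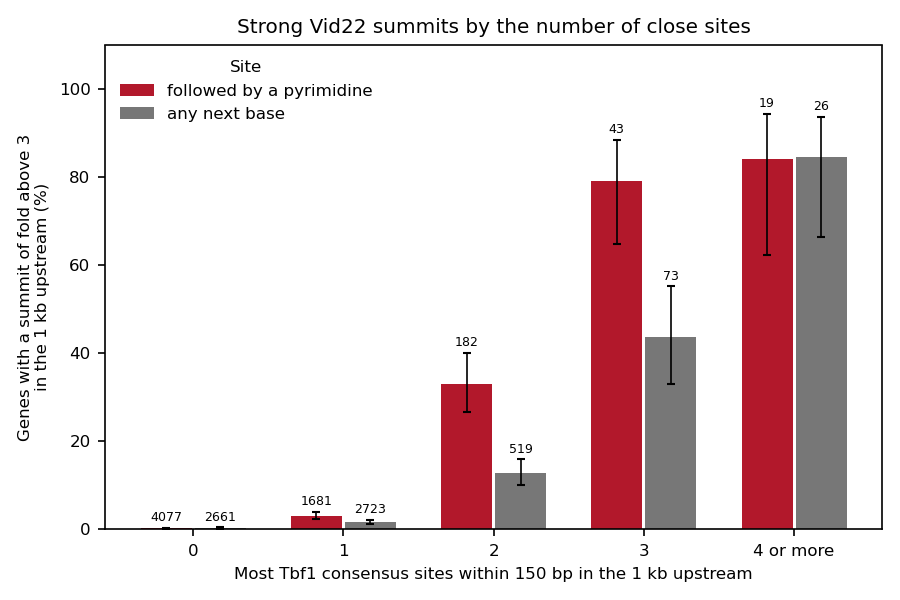
Share of genes (y axis, %) with a Vid22 summit of fold above 3 in the 1 kb upstream, by the highest number of Tbf1 consensus sites found within 150 bp there (x axis). Bars are shares over all 6002 genes with Wilson 95% intervals, numbers above them are genes per class, red bars count sites followed by a pyrimidine and grey bars all sites. The bound members and their divergent neighbours are included, so the peaks used to choose the members count in these shares. With 3 sites the share is 79.1% in red and 43.8% in grey, and with 1 site it is 2.97% and 1.54%.

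FRT2 with FRT1 and OSW7 with SHE10 were set beside the other duplicated genes. Since 13.8% of all genes have a peak, most pairs would lack one at either gene whether or not paralogs share binding, and the counts below are a description. The genome held 1013 reciprocal best pairs, and without the 3 pairs described here 31 of 1010 had a peak at both genes, 223 at 1 gene and 756 at neither. A strong upstream summit at 1 gene at least was present in 58 pairs. In 48 of these, SCO1 and SCO2 among them, the other gene had no peak, in 4 it had only a weaker one, and in 6 it also had a strong upstream summit. Of the 6, FRT2 with FRT1 and OSW7 with SHE10 are described above, and MYO4 with MYO2 and SAP155 with SAP4 are the far sides of the same 4 promoters. The remaining 2 were MDM32 with MDM31, genes for mitochondrial inner membrane proteins, with folds of 6.98 and 4.68, and SPO12 with BNS1, genes linked to exit from mitosis, with folds of 4.87 and 4.14. Neither MDM gene had more than 1 TAGGG within 150 bp upstream, whereas BNS1 had 4 and SPO12 had 1. PSR2 and PSR1, plasma membrane phosphatases of the sodium stress response, came next, with folds of 6.95 and 2.86. Without the members and their divergent neighbours 52 pairs had a strong summit, and in 46 the other gene had no peak. Most genes have none, so this count alone does not show divergence between paralogs. A peak of any strength at the other gene is to be read against the 13.8% of all genes. The 6 of 58 pairs with a strong upstream summit there are to be read against the 2.78% of all genes with one. Only 2 of these 6 pairs lie away from the promoters of the members. Sharing or divergence between paralogs was not tested.

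**Figure D4:**
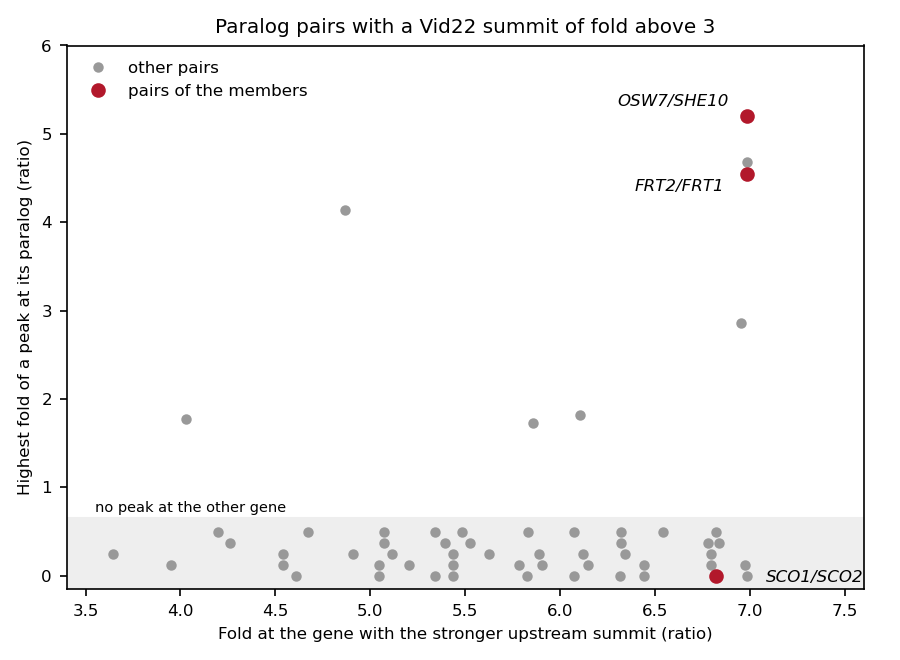
The 58 paralog pairs with a Vid22 summit of fold above 3 in the 1 kb upstream of a gene, with the fold at the gene with the stronger summit (x axis, ratio) against the highest fold of any peak over its paralog or 1 kb upstream (y axis, ratio). The grey band at the bottom holds the 48 pairs with no peak at the paralog, spread in height only to separate the points; red points are the 3 pairs of the members, and the MYO and SAP pairs lie under the FRT and OSW7/SHE10 points because they share their peaks.

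Genes that work with the members were looked up in 3 lists, and the share with a peak was read against the 13.8% of all genes. Of 8 other genes for copper delivery and assembly of cytochrome c oxidase, 1 had a peak at the threshold. This was COX17, the copper chaperone that supplies Sco1, with a fold of 2.86 and no summit in its upstream kilobase. COX11, the copper donor for subunit Cox1, had no peak and 2 TAGGG sites upstream. Of 6 other calcineurin genes, 1 had a peak: CMP2, a catalytic subunit, with a fold of 5.41, no upstream summit and no TAGGG upstream. The other catalytic subunit CNA1, the regulatory subunit CNB1 and CRZ1, the transcription factor that calcineurin dephosphorylates, had none. Of 14 other genes of the outer spore wall, 1 had a peak: OSW2, with a fold of 5.16, no upstream summit and no TAGGG upstream. The dityrosine synthesis genes DIT1 and DIT2 and the chitin deacetylase genes CDA1 and CDA2 had none. In each list 1 gene is too few to set the list apart from all genes. A strong upstream summit was present at none of these other genes, and only 2.78% of all genes have one.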

How the data were processed

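The peak list of Vid22-13Myc was analysed. According to the methods and the labels' processing notes, the authors aligned reads of 50 bp with Bowtie, filtered for a unique best position, took out duplicates with SAMtools and called peaks with MACS2 against the wild type (no tag) control on sacCer3. Versions are not given in the sources used here. The control's own profile was not analysed here. The deposited score, a whole number, is 10 times the −log10 of the q-value, rounded down. The deposited fold enrichment is a ratio to the local control at the summit. For the p-value and the q-value the authors deposited −log10 at the summit. A −log10 q-value of at least 9 was required here, the authors' false discovery rate as written. The paper reports fewer peaks than passed this threshold, so the peaks used here are not the paper's set.

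The genes, gene starts and proteins came from the RefSeq annotation of the same assembly, whose models of the 6 genes hold coding sequence only. A gene had a peak when it overlapped the gene or 1000 bp upstream by at least 1 base. Predicted G4 elements and TAGGG were searched on both strands. Paralogs were reciprocal best blastp hits with E of at most 1e-05 over at least 30% of the shorter protein, without masking. The promoter sequence of OSW7 is not reported here. Intervals are Wilson 95% intervals. The searches were tested on simulated sequences. Named genes were the members, 3 protein-coding neighbours on each side, the genes of 3 lists, and pairs with a fold of at least 6. SPO12 with BNS1 falls outside that rule and was named after its values were seen. Of the 17 names listed for the outer spore wall 16 were distinct genes. Members, lists and rules were chosen with earlier results of these data known. Alternatives covered the threshold, the window, the overlap, the loops, the distance to the summit and the rule for pairs. Software was blastp 2.17.0, biopython 1.88, matplotlib 3.10.9 and scipy 1.17.1, with pandas 2.3.3 and numpy 2.4.6 in Python 3.11.15.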

Additional observations from a re-analysis of the deposited data

How the results depend on the processing

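The 5 bound members kept a peak and SCO2 lacked one under all 7 alternatives for the threshold, the window and the overlap, while the count over all genes, 829 as reported, ran from 495 at a −log10 q of at least 20 to 1239 with all peaks. TAGGG stayed present upstream of all 6 members with 500 or 2000 bp and with C or T required after it, and near all 5 summits within 50 or 200 bp. The G4 elements depended on the definition: 2 members had one as reported, 0 with loops of up to 7 or up to 12 bases and 1 with 500 bp upstream. Pairs of the genome with a peak at both genes, 33 as reported, numbered 86 with all peaks, 12 at a −log10 q of at least 20 and 18 when the summit had to lie in the 1 kb upstream. Pairs with a peak at 1 gene, 224 as reported, numbered 138 at a −log10 q of at least 20 and 142 with the summit upstream, and were within 1.5 times of it otherwise. The summit rule and masking of low-complexity sequence were chosen after seeing the data. With masking the FRT2 and FRT1 alignment dropped below 30% of the shorter protein, and with 50% required only SCO1 and SCO2 of the 3 pairs were found. No paired analysis was possible because each condition has 1 library, and no library could be left out for the same reason. Without replicates, differences in fold between members, such as 6.98 at FRT2 and 4.54 at FRT1, carry no error. They also combine the Vid22 pileup with the local control, and were not shown to be differences in Vid22 binding.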

Other observations

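A group of 3 TAGGG followed by C or T within 150 bp was not always accompanied by a peak. The 5 genes with such a group and no peak at the threshold were SAC7, YER190C-B, YRF1-5, YML133C and YRF1-7, named here because they are few and after their values were seen. At SAC7, which encodes a GTPase-activating protein for Rho1, 100% of positions began a 50-mer found once in the genome. The other 4 lie 279 to 712 bp from a chromosome end, and at most 2.49% of their positions began such a 50-mer. The authors kept reads with a single best position, and the part of this in the missing peaks was not tested. In the other direction, 4 genes with at least 3 TAGGG followed by C or T upstream but no 2 within 150 bp, the arrangement of SCO2, had a peak: CUS1 with a fold of 5.87, GIR2 with 5.63, CKS1 with 3.93 and YRF1-3 with 2.49.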
